A study of Bubalus bubalis with 12 samples.

Results

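Imprinted genes are expressed mainly from the copy inherited from 1 parent, because the other copy was marked, chiefly by DNA methylation, in the egg or the sperm. Many of them act in growth of the foetus and the placenta, several are strong in the developing brain, and a number of them are turned down in most tissues after birth. In the adult rumen, a stratified squamous epithelium lies over connective tissue and smooth muscle, and a library of the whole wall holds RNA of all these layers. FPKM values do not separate the parental copies, so that the levels below are totals over both. Genes are called imprinted here by the lists they were taken from, and their imprinting in the buffalo rumen was not tested.

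The 10 imprinted genes described here, of 34037 genes in the table, were IGF2, DLK1, PLAGL1, PEG3, NDN, MAGEL2, MKRN3, PEG10, MEST and NNAT. They were found by their gene names, and MKRN3 and MEST were selected on measured values, since each of them had most of its reads in 1 animal. Their levels across the animals are therefore given as a description, without a test.

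Ruminal wall was collected from 12 dairy buffaloes (Bubalus bubalis), divided by diet into a control group of 6, given a total mixed ration (TMR), and a treated group of 6, given TMR + green feed at 30%. Each animal gave 1 stranded library of total RNA from frozen tissue. The animals are named here by their group and the number in the sample descriptions. The sample titles number several animals otherwise, and the paper describes no pairing of animals across the diets. The deposited unit was FPKM, which scales the fragments of a gene by its length and by the fragments counted in the animal. Whole reads were recovered from the steps between FPKM values for all 22972 genes above 0. Between 10531541 and 12948372 fragments were counted on genes per animal. The floor is set here at 3 reads per animal, and floors and intervals cover counting error only.

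The libraries of control animal 6 and treated animal 6 stood apart from the others. Their median Pearson r with the other 11 animals over the genes tested was 0.925 and 0.923, against 0.937 or more in the other 10. The basal keratin gene KRT5 was at 451 FPKM in control animal 6 and at 498 FPKM in treated animal 6, while the lowest of the other animals had 1179 FPKM. Both libraries were also low in PKP1, a plakophilin of the desmosome, with 117 and 63.5 FPKM. These animals are named below beside several values that rest on them.

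The label of the tissue was compared with cell type markers. Epithelial markers were by far the highest, with a summed level of 3736 ± 712 FPKM (mean ± SD, n = 6) in the control group and 4063 ± 908 FPKM (n = 6) in the treated group. Fibroblast markers, led by the collagen gene COL3A1, summed to 140.0 ± 89.0 FPKM in the control group and to 95.5 ± 63.2 FPKM in the treated group. Smooth muscle markers, led by TAGLN, summed to 24.8 ± 9.05 FPKM and 14.3 ± 8.08 FPKM, respectively. Neural and glial markers summed to 8.32 ± 3.85 FPKM in the control group and to 6.06 ± 2.47 FPKM in the treated group, led by S100B with a median of 6.21 FPKM. In that list, SOX10, ELAVL4 and GAP43 did not exceed the floor in any animal. Of 7 adipocyte markers, ADIPOQ, PLIN1, PLIN4 and LEP did not exceed it either, and FABP4 carried most of that list with a median of 69.2 FPKM. Skeletal muscle markers summed to at most 2.08 FPKM in any animal. Endothelial and mural markers, led by PECAM1, lay between 14.2 and 42.2 FPKM over all animals, and immune markers, led by CD14, between 25.1 and 50.7 FPKM.

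**Figure D1:**
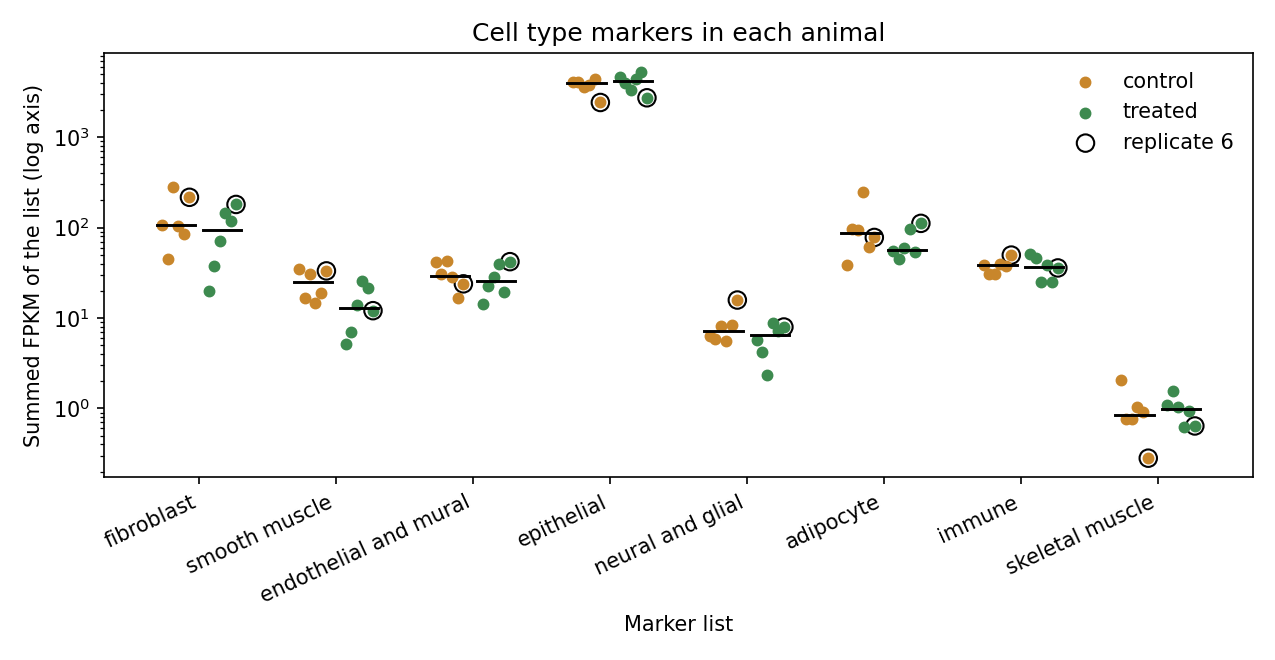
Summed FPKM of each marker list (log axis) in each of the 6 control and 6 treated animals, with the group median as a line and the libraries numbered 6 circled. Epithelial markers were lowest in the circled libraries of both groups, with 2420 FPKM in control animal 6 and 2728 FPKM in treated animal 6.

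Levels of the imprinted genes differed widely in FPKM. PLAGL1 was the highest, with a median of 10.3 FPKM over the 12 animals, against a median of 7.77 FPKM over the 12642 genes tested. IGF2 followed with 2.11 FPKM, and PLAGL1 was higher than IGF2 in 12 of 12 animals with ranges that did not overlap. NDN had a median of 0.799 FPKM and lay below IGF2 in 11 of 12 animals. NDN, NNAT (median 0.688 FPKM) and PEG3 (median 0.476 FPKM) had overlapping ranges, and NNAT was above PEG3 in 6 of 12 animals. MEST had a median of 0.202 FPKM, PEG10 of 0.0488 FPKM and MKRN3 of 0.0173 FPKM. The medians of DLK1 and MAGEL2 were 0.

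**Figure D2:**
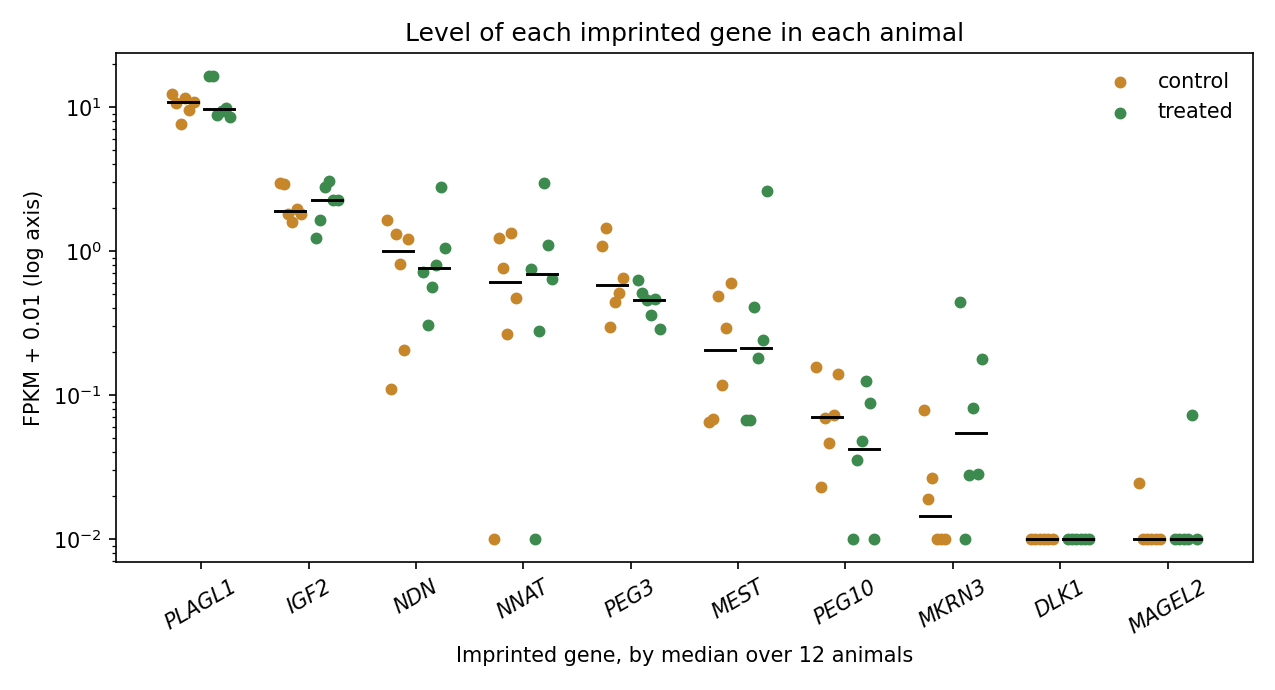
FPKM + 0.01 (log axis) of the 10 imprinted genes in each of 6 control and 6 treated animals, with the group median as a line. PLAGL1 lay above the other genes in all animals, and in each gene with reads the ranges of both groups overlapped. Over all 12642 genes tested, only 7 (0.055%) had group ranges that did not overlap.

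Genes were tested for the effect of the diet with limma on log2(FPKM + 0.01), on which scale a log2 fold change (treated minus control) understates the change of low genes. Those tested had reached a minimum of scaled reads in at least 1 animal. Of the 10 imprinted genes, 7 passed, and DLK1, MAGEL2 and PEG10 did not. NDN, MKRN3, MEST and NNAT passed through 1 treated animal each, in which they were high, so that their diet differences are given as a description. Over all genes tested, 157 (1.24%) had a nominal p-value below 0.05 and 0 had an adjusted one below 0.05. IGF2, PLAGL1 and PEG3 were not among the 157. The ranges of the groups overlapped in all but 7 (0.055%) of the genes tested, so that overlap sets no gene below apart. By direction, 100 genes (0.791%) had higher and 57 (0.451%) had lower FPKM with TMR + green feed. This balance was the other way round over all genes above 0 (271 higher, 291 lower), without treated animal 4 (80 and 98) and without treated animal 5 (95 and 99). Limma-voom on the reads gave 141 nominal genes (1.12%) and 0 adjusted ones. Beside limma, p-values are given from a two-sided exact permutation test, which cannot go below 0.00216 with 6 animals against 6, and by which 219 genes were nominal and 0 adjusted ones below 0.05.

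IGF2 (gene identifier 102395378) encodes a secreted growth factor that signals through the IGF1 receptor and the insulin receptor. It ranged from 1.59 to 2.97 FPKM in the control group (median 1.88 FPKM) and from 1.22 to 3.04 FPKM in the treated group (median 2.26 FPKM). Control animals 1 and 2 and treated animals 3 and 4 were the highest, and the groups overlapped. The mean was 2.17 ± 0.607 FPKM (SD, n = 6) in the control group and 2.20 ± 0.681 FPKM (n = 6) in the treated group. On the log2 scale IGF2 differed by -0.0016 (standard error 0.25; limma nominal p = 0.995, adjusted p = 1.00, exact permutation p = 0.991).

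DLK1 (102407223), a transmembrane protein with EGF repeats that is shed from the cell and restrains fat cell formation, had 0 reads in 12 of 12 animals. At this depth, up to 3 reads per animal would not have been told from 0.

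PLAGL1 (102414996), a zinc finger transcription factor, was the imprinted gene with the most reads, between 337 and 674 per animal. It ranged from 7.63 to 12.3 FPKM in the control group (median 10.8 FPKM) and from 8.57 to 16.4 FPKM in the treated group (median 9.62 FPKM). Treated animals 1 and 2 were above all control animals, with 16.3 and 16.4 FPKM, and the other 4 treated animals lay within the control range. PLAGL1 had a log2 fold change of 0.11 (standard error 0.19; limma nominal p = 0.585, adjusted p = 1.00, exact permutation p = 0.595). It was -0.0029 without treated animal 1, -0.0039 without treated animal 2 and -0.11 with the fibroblast and smooth muscle score as a covariate.

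PEG3 (102396670) encodes a long protein with many zinc fingers. It ranged from 0.288 to 1.45 FPKM in the control group (median 0.572 FPKM) and from 0.278 to 0.616 FPKM in the treated group (median 0.449 FPKM). The spread in the control group came from animals 1 and 2, with 141 and 180 reads, while of the others control animal 6, at 0.645 FPKM, was just above the treated range and 3 lay within it. Between the diets, the log2 difference of PEG3 was -0.55 (standard error 0.39; limma nominal p = 0.177, adjusted p = 1.00, exact permutation p = 0.193). With the fibroblast and smooth muscle score as a covariate, it was -0.90, with a limma nominal p of 0.0376 and no adjusted p-value below 0.05. Without control animal 2, the log2 difference of PEG3 was -0.31.

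NDN, MAGEL2 and MKRN3 stand next to each other in the genome, in the region lost in Prader-Willi syndrome in humans, and in the RefSeq table of the assembly NDDB_SH_1 they neighbour each other in that order. NDN (102404160), a MAGE family protein that holds back growth of neurons and other cells, ranged from 0.101 to 1.62 FPKM in the control group (median 0.999 FPKM) and from 0.299 to 2.78 FPKM in the treated group (median 0.748 FPKM). Treated animal 5 was the highest with 55 reads, control animal 2 was the lowest with 2 reads, and the groups overlapped. The mean log2 level of NDN was higher by 0.43 in the treated group, and this was -0.055 without control animal 2 and 0.078 without treated animal 5. MAGEL2 (102403619), another MAGE protein that works with a ubiquitin ligase on endosomes, had 1 read in control animal 1, 4 reads in treated animal 5 and 0 reads in the other 10 animals.

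MKRN3 (102403290), a RING finger protein of the makorin family known as a brake on puberty, had 91 reads in all. It ranged from 0 to 0.0686 FPKM in the control group (median 0.0045 FPKM) and from 0 to 0.432 FPKM in the treated group (median 0.0448 FPKM). Treated animal 1 held 48 of the 91 reads, 52.7% (95% exact Clopper-Pearson interval 42.0% to 63.3%). Treated animal 6, whose library stood apart, had 20 reads, control animal 1 and treated animal 4 had 8 each, and the other 8 animals were at the floor, of which 4 had 0 reads. For MKRN3, 3 reads were worth between 0.0250 and 0.0307 FPKM. Without control animal 6 and treated animal 6, treated animal 1 held 67.6% of the reads.

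MEST (102405096), a protein with the fold of hydrolases that is strong in mesoderm and growing fat tissue, also had 91 reads in all. It ranged from 0.0547 to 0.588 FPKM in the control group (median 0.194 FPKM) and from 0.0571 to 2.59 FPKM in the treated group (median 0.202 FPKM). Treated animal 6 held 48 of the 91 reads, 52.7% (interval 42.0% to 63.3%), and the next highest animals, control animals 3 and 6, had 9 each. Treated animal 6 is 1 of the libraries that stood apart, and without both of them the highest remaining animal, control animal 3, held 26.5% of the reads. With treated animal 6 set aside, the treated animals lay between 0.0571 and 0.401 FPKM, within the control range.

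**Figure D3:**
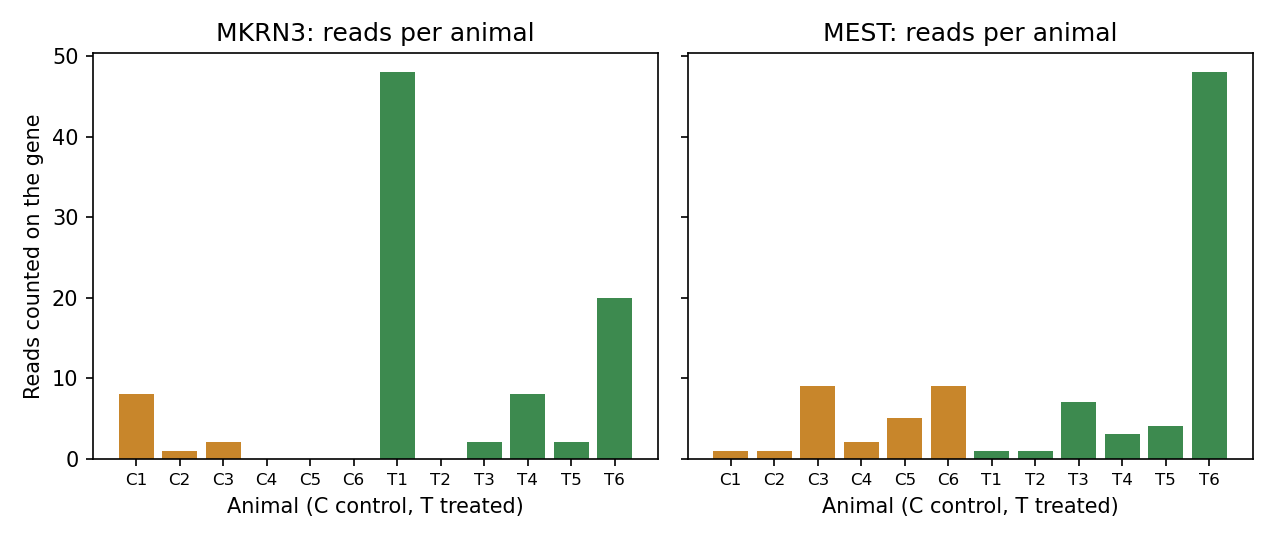
Reads counted on MKRN3 and MEST in each of 6 control animals (C) and 6 treated animals (T), as bars from 0. The highest bar is treated animal 1 for MKRN3 and treated animal 6 for MEST, with 48 reads in both cases.

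A share above 50% in a single animal was found for 22 (0.174%) of the 12642 genes tested, and the median share of the highest animal was 11.7%. MKRN3 and MEST are among those 22 by the way they were selected. The next shares among the imprinted genes tested were 30.3% for NNAT, in treated animal 4, 23.9% for NDN, in treated animal 5, and 20.3% for PEG3, in control animal 2. For PLAGL1 and IGF2 the highest animal held 12.4% and 11.7%. The ratio of variance to mean of the depth-scaled reads within groups was 15.7 for MKRN3 and 16.6 for MEST, against a median of 14.5 over all genes tested. On the log2 scale, their within-group SD was 1.65 and 1.71, against a median of 0.358 over all genes tested. The ratio of variance to mean depends on the level of a gene, and both lay far below the median level of the genes tested, 7.77 FPKM. It therefore does not show whether their spread was usual. Both log2 SDs follow from the way the genes were selected, and that of MKRN3 includes 4 animals at 0 reads.

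PEG10 (102389079), a protein derived from a retrotransposon that is needed in the placenta, was too low to be tested with limma. It had at most 12 reads per animal, and 6 of 12 animals were at the floor. PEG10 ranged from 0.0129 to 0.146 FPKM in the control group and from 0 to 0.114 FPKM in the treated group, and the groups overlapped. The exact permutation p was 0.216.

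NNAT (102411141), a small membrane protein of the endoplasmic reticulum best known from brain, ranged from 0 to 1.32 FPKM in the control group (median 0.604 FPKM) and from 0 to 2.94 FPKM in the treated group (median 0.688 FPKM). Control animal 1 and treated animal 2 had 0 reads, and treated animal 4 was the highest with 44 reads. The mean log2 level of NNAT was higher by 0.25 in the treated group, and this was -0.76 without control animal 1, -0.32 without treated animal 4 and 1.32 without treated animal 2. Its within-group SD of 2.74 on the log2 scale was above that of 99.7% of the genes tested and includes the 2 animals at 0 reads. Its ratio of variance to mean was 11.9. The median of 14.5 over all genes tested is mostly that of higher genes, so that it does not show whether this spread was usual.

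Levels of the genes next to the imprinted ones in the RefSeq order varied. SNURF, which shares the region of NDN, had a median of 19.3 FPKM, and COPG2, a coat protein gene beside MEST, of 15.3 FPKM, while CEP41 on the other side of MEST had 1.36 FPKM. BEGAIN, beside DLK1, had a median of 0.0042 FPKM. SGCE, the neighbour of PEG10, had a median of 0.279 FPKM. INS, the insulin gene beside IGF2, was at 0 in all 12 animals.

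The other imprinted genes from a list were 41 in the table, of which 19 were tested. Limma gave 1 of the 19 a nominal p-value below 0.05, and it was lower in the treated group, beside 0.451% of all genes tested in that direction. The median log2 fold change of the 19 was -0.048, against 0.0053 over all genes tested. GRB10, an adaptor that binds the insulin and IGF1 receptors, was the nominal gene and ranged from 3.01 to 5.18 FPKM in the control group (median 4.43 FPKM) and from 2.39 to 3.84 FPKM in the treated group (median 3.12 FPKM). Control animals 4 and 6 fell within the treated range, so that the groups overlapped. Between the diets, the log2 difference of GRB10 was -0.41 (standard error 0.17; limma nominal p = 0.0283, adjusted p = 1.00, exact permutation p = 0.0260). Without control animal 2, 3 or 5 or treated animal 5 or 6, left out singly, the limma nominal p of GRB10 was 0.0690, 0.0569, 0.0580, 0.0503 or 0.0584. Without any other single animal it was below 0.05, the lowest being 0.0060 without control animal 6. Without both libraries that stood apart it was 0.0079. UBE3A, a ubiquitin ligase gene, had an exact permutation p of 0.0216 and a limma nominal p of 0.341, and was picked out after its values were seen. UBE3A lay between 32.1 and 34.8 FPKM in the control group (median 33.5 FPKM) and between 29.4 and 33.3 FPKM in the treated group (median 32.0 FPKM). The groups overlapped, and the highest control value was that of control animal 6 and the lowest treated value that of treated animal 6, both libraries that stood apart. CD81, a tetraspanin, had the highest median of the list with 110.1 FPKM, and control animal 6 and treated animal 6 were the lowest with 43.2 and 45.3 FPKM. At 0 in all animals were INS, RTL1, DIO3, CALCR, ZIM3, ZDBF2 and SLC22A2.

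Relatives of the imprinted genes numbered 17 in the table, and 9 were tested. Limma gave 0 of the 9 a nominal p-value below 0.05, beside 1.24% of all genes tested. The median log2 fold change of the 9 was -0.098. MKRN1, a ubiquitin ligase related to MKRN3, had the highest median of these relatives, 27.4 FPKM, with 26.4 ± 6.36 FPKM (SD, n = 6) in the control group and 27.8 ± 3.09 FPKM (n = 6) in the treated group. Control animal 6 was the lowest with 15.3 FPKM. The log2 fold change of MKRN1 was 0.11 with this animal and -0.041 when it was left out. RTL5, a gene of the same retrotransposon origin as PEG10, had the largest log2 fold change of the list, 1.10. It passed the minimum of scaled reads through treated animal 4 alone, its highest with 48 reads. Its diet difference is therefore given as a description. With a pseudocount of 1 the log2 fold change of RTL5 was 0.28. Leaving out single animals gave 0.75, without control animal 4, to 1.31, without control animal 5. RTL5 lay between 0.0585 and 0.464 FPKM in the control group and between 0.253 and 0.984 FPKM in the treated group, and treated animals 1, 2 and 4 were above all control animals.

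Genes that act in setting, keeping or removing DNA methylation and imprints, listed as imprint maintenance, were 18 in the table and 15 tested. None reached a nominal p-value below 0.05 in limma (0 of 15), beside 1.24% of all genes tested. The median log2 fold change of the 15 was -0.018. TRIM28, the corepressor through which zinc finger proteins hold methylation at imprinted regions, was the highest with a median of 46.6 FPKM. Its lowest values were 17.2 FPKM in control animal 6 and 15.3 FPKM in treated animal 6, and the other animals had at least 41.2 FPKM. ARID4A, a chromatin protein, had the largest log2 fold change of the list, -0.15 (standard error 0.14; limma nominal p = 0.301, adjusted p = 1.00, exact permutation p = 0.297). Without treated animal 6, which had the lowest ARID4A level with 8.18 FPKM, this was -0.054, and without both libraries that stood apart it was -0.059.

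Among 23 genes whose products bind or act with those of the imprinted genes, 21 were tested, of which 1 had a nominal p-value below 0.05 in limma and was higher in the treated group, beside 0.791% of all genes tested in that direction. The median log2 fold change of the 21 was -0.031. IGFBP6, a binding protein that prefers IGF2, was that gene, with 4.32 to 10.1 FPKM in the control group (median 6.81 FPKM) and 4.51 to 25.7 FPKM in the treated group (median 14.6 FPKM). Treated animals 1, 2, 4 and 5 were above all control animals, while treated animals 3 and 6 lay within their range. On the log2 scale IGFBP6 differed by 0.95 (standard error 0.38; limma nominal p = 0.0247, adjusted p = 1.00, exact permutation p = 0.0541). The limma nominal p of IGFBP6 was between 0.0544 and 0.0620 without control animal 2 or 6 or treated animal 1, 4 or 5, left out singly. Without any other single animal it was below 0.05, the lowest being 0.0014 without treated animal 3. IGFBP5 had the highest median of the list, 59.2 FPKM, with a spread from 7.21 FPKM in treated animal 6 to 110.6 FPKM within the treated group, where the next lowest animal had 47.7 FPKM. IGFBP2 had the largest log2 fold change, -1.63 (standard error 0.83; limma nominal p = 0.0702, adjusted p = 1.00, exact permutation p = 0.123). Without treated animal 6 the log2 fold change of IGFBP2 was -1.08, and without both libraries that stood apart it was -1.34. Without treated animal 5 it was -2.15, with a limma nominal p of 0.0146, and without control animal 3 it was -1.96, with a limma nominal p of 0.0388. Without treated animal 4 the limma nominal p was 0.0422. With the replicate number as a block the limma nominal p of IGFBP2 was 0.0042, and no adjusted p-value was below 0.05. This number is a label, and no pairing of animals by it is described. IGFBP2 lay between 4.47 and 32.3 FPKM in the control group and between 0.660 and 27.9 FPKM in the treated group, and treated animals 2, 3 and 6 were below all control animals. The paper reports that rt-qPCR on the same samples conflicted with its RNA-seq for IGFBP2 and went the same way for IGFBP6.

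Since the library holds the whole wall, the 5 imprinted genes tested and not selected on their values were set against the mean log2 FPKM of 5 marker lists over the 12 animals, which gave 25 pairs, of which 10 are those of NDN and NNAT, each admitted through 1 animal. In such libraries, fewer cells of a type and less RNA per cell cannot be told apart. After Benjamini-Hochberg adjustment over the 25 pairs, 0 had an adjusted permutation p-value below 0.05. The largest Pearson r in size was that of PLAGL1 with fibroblast markers, -0.67 (permutation p = 0.0158, adjusted p = 0.233), with a Spearman rho of -0.52 (permutation p = 0.0833, adjusted p = 0.370). Without treated animals 1 and 2, the animals farthest from the median of the fibroblast score, r was -0.24, a step that also narrows the range of the score. Leaving out single animals gave an r between -0.80 and -0.51. IGF2 with endothelial and mural markers had an r of 0.64 (permutation p = 0.0250, adjusted p = 0.233) and a rho of 0.55 (permutation p = 0.0706, adjusted p = 0.370), and r was 0.42 without control animal 5 and treated animal 1. PLAGL1 with immune markers had an r of 0.63 (permutation p = 0.0280, adjusted p = 0.233) and a rho of 0.71 (permutation p = 0.0131, adjusted p = 0.328), and r was 0.54 without control animal 3 and treated animal 3. Taken as deviations from the diet means, the largest r in size was that of PEG3 with fibroblast markers, -0.72 (permutation p = 0.00798, adjusted p = 0.114). Without this step the r of PEG3 with fibroblast markers was -0.47.

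MEST and MKRN3 are described in the same way without a test. Of the 12 animals, 6 were at the floor for MEST and 8 for MKRN3, where levels cannot be told from 0. MEST had an r of -0.72 with epithelial markers over 12 animals (rho -0.55), and an r of -0.26 without control animal 6 and treated animal 6. Its r with immune markers was -0.35 over 12 animals and -0.62 without these libraries, and its r with fibroblast markers was 0.49 and 0.57. MKRN3 had an r between -0.25 and 0.043 with the 5 lists over 12 animals. Without control animal 6 and treated animal 6, it lay between -0.26 with fibroblast markers and 0.33 with epithelial markers. Between the genes, the r of MEST with PLAGL1 was -0.72 (rho -0.78), and that of MKRN3 with MEST was 0.056 over 12 animals.

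The genes with the pattern most like MEST over the 12 animals were MOSPD1 (r = 0.95), MED21 (r = 0.94) and LOC102400376 (r = 0.94), and without control animal 6 and treated animal 6 their r was 0.90, 0.88 and 0.83. MOSPD1 was highest in treated animal 6 with 6.70 FPKM, against a median of 3.22 FPKM. For MKRN3 they were EPB41L4A (r = 0.86), RELL1 (r = 0.85) and OCIAD2 (r = 0.84). EPB41L4A was highest in treated animal 1, which held 13.4% of its reads. For PLAGL1 they were the cell cycle kinase gene CDK6 (r = 0.93), PPRC1 (r = 0.92) and the chromatin remodeller gene CHD2 (r = 0.92), and CDK6 was highest in treated animal 1 with 16.7 FPKM. These genes were taken as the highest of all genes tested, and the r values are a description.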

How the data were processed

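The authors deposited FPKM values per gene for the ruminal wall of 12 buffaloes. According to the submitters' processing notes, reads were trimmed with Trimmomatic 0.39, aligned with STAR 2.5.2b and counted with featureCounts 2.0.0; the paper's methods name the UOA_WB_1 genome and strand-specific counting. The table also held 4 columns that no sample label matched, which were not used. Reads behind each FPKM were worked out from the whole-number steps within genes (tolerance 1e-06). Genes reaching the study's HTSFilter threshold, 41.64 TMM-scaled reads, in 1 animal or more (12642) entered limma 3.58.1 in R 4.3.3 (eBayes with trend) on log2(FPKM + 0.01), and p-values were adjusted after Benjamini and Hochberg over all 12642. Permutation tests were two-sided, exact for groups and with 100000 resamples for correlations. Python 3.11.15, numpy 2.4.6, scipy 1.17.1, pandas 2.3.3 and matplotlib 3.10.9 were used. The steps were tested on simulated data. The 66 pairs of libraries differed by at least 18.6 in chi-square per gene, so that none was counted as a repeat.

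The members and lists were chosen with earlier results of these data known. The lists were other imprinted genes, same-family genes, imprint maintenance, partners, and 8 marker lists. Named genes were every imprinted gene of the 10; in each other list those with a nominal limma p-value below 0.05, the highest median FPKM and the largest absolute log2 fold change; and the 3 genes with the highest r with MKRN3, MEST and PLAGL1. Neighbouring genes, UBE3A, genes at 0 and single markers were named outside this rule. Alternatives were pseudocounts of 0.1 and 1, 2 filters, 2 scalings, the replicate number as a block, a fibroblast and smooth muscle score as a covariate, and leaving out single animals. Limma-voom, and leaving out control animal 6 and treated animal 6 together, were chosen after seeing the data. Some neural and glial markers are not reported here.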

Additional observations from a re-analysis of the deposited data

Results flagged for a closer look

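Among 54 groups of 6 animals, 11 values stood farther from the nearest other animal than Dixon's 95% critical value allows on the log2 scale, which chance exceeds in about 1 in 20 groups. Most of them were in control animal 6 and treated animal 6. CD81 was low in control animal 6 (43.2 FPKM) and treated animal 6 (45.3 FPKM), TRIM28 in control animal 6 (17.2 FPKM) and treated animal 6 (15.3 FPKM), and IGFBP5 in control animal 6 (23.4 FPKM) and treated animal 6 (7.21 FPKM). In control animal 6, KRT5 (451 FPKM) and the summed epithelial markers (2420 FPKM) were low as well. MAGEL2 had reads in only 1 animal of each group, with 0.0147 FPKM in control animal 1 and 0.0621 FPKM in treated animal 5. NNAT was at 0 FPKM in control animal 1.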

How the results depend on the processing

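The number of adjusted p-values below 0.05 by diet was 0 in all 22 alternatives, and so was the number of adjusted correlations with marker scores in all 17. Against 157 genes with a nominal p-value below 0.05, there were 562 of the 22972 genes above 0, 301 of the 16450 genes that reached 0.1 FPKM in 6 or more animals, 352 with the fibroblast and smooth muscle score as a covariate, and 314 without control animal 6 and treated animal 6. Leaving out single animals gave 142 to 325, the highest without treated animal 6. The cause was not tested. With the replicate number as a block there were 322 nominal genes, and IGFBP2 had a limma nominal p of 0.0042. The number comes from the sample descriptions, and no pairing of animals by it is described. Animals with the same number had a correlation of deviations between -0.013 and 0.42, not above 0.1 in every pair, and 8 of 12 animals correlated best with their own number.

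Of 14 single genes, 8 changed the sign of their log2 fold change under at least 1 setting, in 38 values. Other filters, the block and the exact test cannot change this sign, and NDN, NNAT and RTL5 are described only. Nominal p-values crossed 0.05 for PEG3, GRB10, IGFBP6 and IGFBP2 under some of these settings. The cause of these changes was not tested. With the covariate, the log2 fold change was 0.16 for IGF2, -0.11 for PLAGL1, -0.14 for TRIM28, -0.90 for PEG3 and 1.26 for NDN. With a pseudocount of 1 it was 0.0051 for IGF2 and 0.018 for IGFBP5, and IGFBP5 had 0.0017 with a pseudocount of 0.1 and 0.00057 with TMM scaling. Without control animal 6 and treated animal 6, it was 0.34 for IGFBP5 and -0.017 for MKRN1. Leaving out single animals gave -0.11 to 0.15 for IGF2, -0.0039 to 0.18 for PLAGL1, -0.055 to 0.72 for NDN, -0.76 to 1.32 for NNAT, -0.28 to 0.16 for CD81, -0.041 to 0.18 for MKRN1, -0.23 to 0.29 for TRIM28 and -0.23 to 0.57 for IGFBP5. By the mean over 12 animals, 4 of the 10 imprinted genes changed place in their order. MKRN3, MEST, NDN and NNAT rest on few reads, and with 3 reads or fewer in an animal their levels cannot be told from 0.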
